A study of Mus musculus with 4 samples.

Results

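The Bcl2 family genes studied here were the 10 genes Bcl2, Bcl2l1, Mcl1, Bax, Bak1, Bcl2l11, Bbc3, Pmaip1, Bid and Bik. They were taken by gene name from a transcript table of 160308 transcripts and 52327 gene names, where they held 61 transcripts. Bcl2, Bcl2l1 and Mcl1 encode pro-survival proteins, Bax and Bak1 encode the pore-forming effectors, and Bcl2l11, Bbc3, Pmaip1, Bid and Bik encode BH3-only proteins.

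Total RNA of 46C cells was sequenced. 46C is a line of mouse embryonic stem cells with GFP inserted at Sox1 as a reporter of neural fate. The 2 rfISCs libraries came from intermediate stem cells in PIF medium, a state placed between the rosette and the formative stages of pluripotency. The 2 ESCs libraries came from embryonic stem cells in 2i medium, which holds MEK and GSK3 inhibitors and keeps cells naive, and were the control. Both groups were of the same line, and it is not stated if the replicates were separate cultures, so the p-values measure a spread that may be technical.

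Bcl2 family proteins control the mitochondrial route of apoptosis. Pro-survival members hold Bax and Bak in check at the outer mitochondrial membrane, and BH3-only proteins bind the pro-survival members, or in the case of Bim, Puma and truncated Bid also engage Bax and Bak directly, after which the effectors permeabilise the membrane and release cytochrome c. Pluripotent cells are known for being close to the threshold of this pathway.

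Library totals were between 21499590 and 23780989 estimated counts in rfISCs and between 19243701 and 21517544 in ESCs. All 8 naive pluripotency markers were called lower in rfISCs, with summed levels of 875 and 860 CPM in the rfISCs libraries and 3469 and 3522 CPM in the ESCs libraries, and all 6 formative epiblast markers were called higher, with 727 and 740 CPM in rfISCs and 128 and 113 CPM in ESCs (CPM, counts relative to a library size with TMM scaling). Marker sums of other cell types were higher in rfISCs as well. The 8 fibroblast or feeder markers summed to 14.4 and 15.2 CPM in rfISCs and 5.29 and 8.25 CPM in ESCs, with Lum at 0 in all libraries and 5 of the 8 at 0 in both ESCs libraries. The 5 neural markers summed to 136 and 139 CPM in rfISCs and 89.6 and 63.1 CPM in ESCs, of which Tubb3 alone gave 108 and 110 CPM in rfISCs and 87.2 and 62.4 CPM in ESCs, and Dcx and Neurog2 were at 0 in ESCs. The 5 primitive endoderm markers summed to 9.55 and 6.42 CPM in rfISCs and 3.92 and 4.80 CPM in ESCs, and the 4 trophoblast markers stayed at or under 1.08 CPM in every library, with Tpbpa at 0. The part of these cells in the results on the Bcl2 family was not tested.

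Of the 10 genes, 5 were higher in rfISCs, 3 were lower and 2 were not called. Bcl2l11 and Bbc3, the genes of the death activators Bim and Puma, rose by 4.38-fold and 3.14-fold, while Mcl1 fell 1.65-fold, Bid 1.55-fold and Bak1 1.34-fold. Bcl2, Bcl2l1 and Bik also rose, and Bax and Pmaip1 did not pass the test. Across all 16355 genes tested, 53.7% were called at a Benjamini-Hochberg adjusted p under 0.05 in edgeR's quasi-likelihood test, 27.3% higher and 26.4% lower in rfISCs, so a call by itself does not set these genes apart. In bulk libraries, fewer cells of a type and less RNA per cell cannot be told apart. The median log2 fold change was 0.29 over the 10 genes and 0.00 over all genes tested. All 10 passed the filter on low counts.

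The promoters of 3 members are shown because Bcl2l11 and Bbc3 were the abundant members with the largest rises and Mcl1 the one with the largest fall. Each is the 250 bases before the gene's start in the RefSeq promoter table (build GRCm38.p6, + strand for all 3 genes), 5′ to 3′, with capitals marking motif matches. The windows are chr2:128125788-128126037 for Bcl2l11, chr7:16309333-16309582 for Bbc3 and chr3:95658471-95658720 for Mcl1.
Bcl2l11: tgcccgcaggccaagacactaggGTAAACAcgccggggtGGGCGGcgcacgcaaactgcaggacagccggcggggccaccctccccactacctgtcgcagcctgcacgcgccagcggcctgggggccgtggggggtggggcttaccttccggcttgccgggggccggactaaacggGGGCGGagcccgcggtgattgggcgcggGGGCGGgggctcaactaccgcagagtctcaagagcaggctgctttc
Bbc3: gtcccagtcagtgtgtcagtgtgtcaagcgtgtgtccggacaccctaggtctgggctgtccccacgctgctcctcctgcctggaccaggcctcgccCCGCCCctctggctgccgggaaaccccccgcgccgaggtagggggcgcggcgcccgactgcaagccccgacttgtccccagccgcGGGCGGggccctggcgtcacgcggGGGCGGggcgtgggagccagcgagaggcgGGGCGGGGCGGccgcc
Mcl1: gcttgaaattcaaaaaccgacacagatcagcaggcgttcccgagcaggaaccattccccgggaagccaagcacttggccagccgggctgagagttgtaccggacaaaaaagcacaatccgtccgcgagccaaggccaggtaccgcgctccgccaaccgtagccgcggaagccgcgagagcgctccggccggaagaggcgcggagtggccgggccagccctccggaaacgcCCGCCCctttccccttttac
The capitals in the Bcl2l11 window are the FOXO core TGTTTAC, on the opposite strand and 227 bases before the start, and GC boxes (GGGCGG) at 211, 74 and 46 bases before it. The Bbc3 window held 5 GC boxes, of which the pair nearest the start shares a base, and the Mcl1 window held 1 on the opposite strand, 20 bases before the start. Letters were searched on both strands in 8 of the 10 members. Among 32851 promoter windows of the same length, 3.17% held the FOXO core and 32.7% held a GC box. The FOXO core was in the window of Bcl2l11 alone among the 8 members. An E-box, CACGTG, lay in the Bax window, as in 6.02% of all windows, and neither the CRE letters TGACGTCA (1.55% of windows) nor the paired p53 core, CATG with any 6 bases before a second CATG (0.490%), was in any of the 8. A match describes these letters and not a bound site.

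Among the pro-survival genes, the most abundant one was lower in rfISCs and the others were higher. Mcl1, whose short-lived protein binds Bim, Puma and Noxa, had 222 and 217 CPM in the rfISCs libraries and 340 and 381 CPM in the ESCs libraries. Both rfISCs libraries lay below both ESCs libraries. The log2 fold change was -0.72 (SE 0.0632, edgeR adjusted p = 1.43e-05).

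Bcl2l1, whose main product is the long-lived Bcl-xL, had 51.5 and 54.4 CPM in rfISCs and 41.2 and 33.3 CPM in ESCs. The groups did not overlap, though the ESCs libraries differed more from each other than the rfISCs libraries did. Its log2 fold change was 0.51 (SE 0.107, edgeR adjusted p = 0.00310), a 1.42-fold rise.

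Bcl2, the gene that named the family, had few counts, with 49 and 56 counts in the rfISCs libraries and 8 and 12 counts in the ESCs libraries. In CPM these were 2.24 and 2.32 in rfISCs and 0.436 and 0.582 in ESCs, with no overlap. The fold was 4.41 (95% interval 2.29 to 8.53, edgeR adjusted p = 0.00218), a wide interval. Its level per length, 0.47 and 0.48 TPM in rfISCs and 0.11 and 0.10 TPM in ESCs, was the lowest of the 10 genes in both groups.

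**Figure D1:**
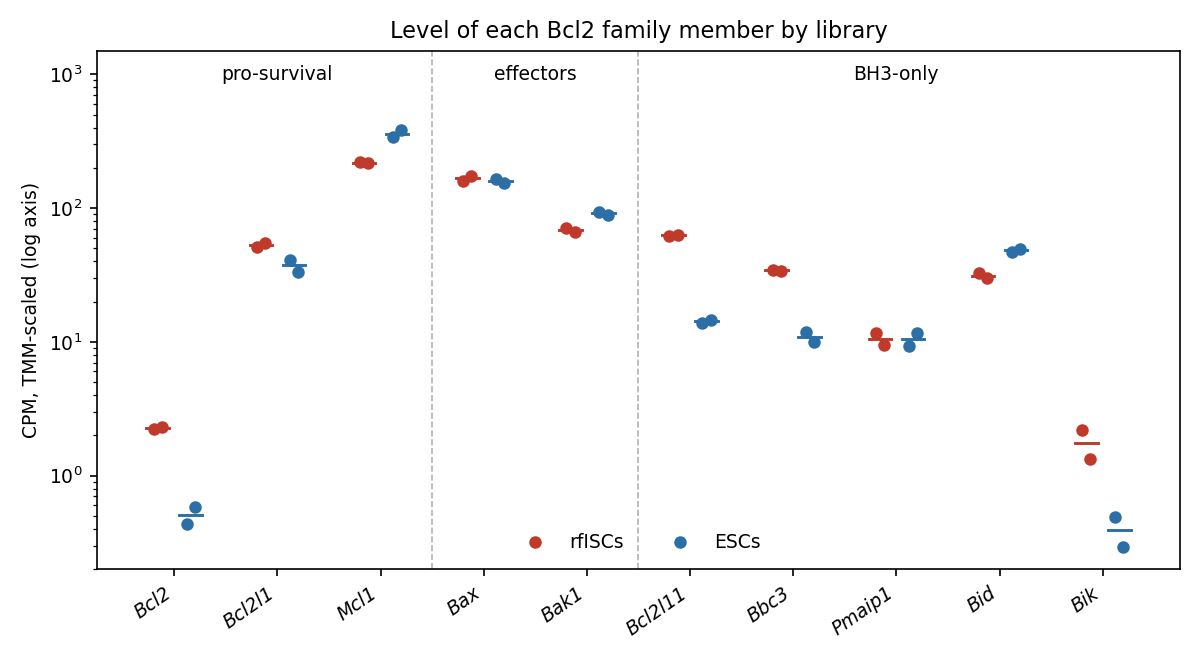
TMM-scaled CPM of each of the 10 genes (log axis) by library, with rfISCs in red to the left of ESCs in blue; points are libraries and bars are means of 2 libraries. The rfISCs points of Bcl2l11 (62.2 and 62.6 CPM) stand clear of its ESCs points (13.8 and 14.7 CPM), those of Mcl1 lie below its ESCs points, and the points of Bax and Pmaip1 overlap between groups.

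Of the effector genes, Bak1 fell and Bax was not called. Bax, whose protein moves from the cytosol to mitochondria to form pores, had 159 and 175 CPM in rfISCs and 164 and 154 CPM in ESCs, and the groups overlapped. Its log2 fold change was 0.07, with a 95% interval from -0.08 to 0.22 (edgeR adjusted p = 0.401). Bak1, the effector that resides on mitochondria and is held there by Mcl-1 and Bcl-xL, had 70.9 and 66.3 CPM in rfISCs and 93.9 and 89.4 CPM in ESCs. All rfISCs values of Bak1 were below all ESCs values, with a log2 fold change of -0.42 (SE 0.0709, edgeR adjusted p = 0.000936). This call was lost on the TPM scale, where limma gave a log2 fold change of -0.14 (adjusted p = 0.143) on log2(TPM + 1).

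The BH3-only genes moved in both directions, with 3 higher, 1 lower and 1 not called. Bcl2l11 encodes Bim, which binds all pro-survival members. It had 62.2 and 62.6 CPM in rfISCs and 13.8 and 14.7 CPM in ESCs. The libraries of each group lay close together and far from those of the other group. The log2 fold change was 2.13 (SE 0.0897, edgeR adjusted p = 1.73e-07).

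Bbc3 encodes Puma, a p53 target that also binds all pro-survival members. It had 34.6 and 33.9 CPM in rfISCs and 11.9 and 9.95 CPM in ESCs, again without overlap. The log2 fold change was 1.65 (SE 0.118, edgeR adjusted p = 3.99e-06). Trp53 itself had 283 and 295 CPM in rfISCs and 284 and 241 CPM in ESCs, which overlapped (edgeR adjusted p = 0.159). Mdm2, another p53 target, had 174 and 184 CPM in rfISCs and 137 and 130 CPM in ESCs (edgeR adjusted p = 0.000345). The naming rule picked neither gene. Protein was not measured, and the part of p53 was not tested.

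Bik, whose human protein acts at the endoplasmic reticulum, was scarce, with 48 and 32 counts in rfISCs and 9 and 6 counts in ESCs. The groups did not overlap, and the fold was 4.48 with a 95% interval from 1.95 to 10.3 (edgeR adjusted p = 0.00743). Without rfISCs replicate 1 its log2 fold change was 1.76 in place of 2.16 and the call was lost (edgeR adjusted p = 0.102).

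Bid, which links death receptor signalling to mitochondria after cleavage by caspase 8, was the BH3-only gene that fell. It had 32.4 and 30.0 CPM in rfISCs and 46.8 and 49.8 CPM in ESCs, with a log2 fold change of -0.63 (SE 0.0878, edgeR adjusted p = 0.000270). Its groups did not overlap. Pmaip1, which encodes the Mcl-1 binder Noxa, had 11.6 and 9.40 CPM in rfISCs and 9.37 and 11.6 CPM in ESCs. These ranges overlapped almost fully, and the 95% interval of the log2 fold change ran from -0.40 to 0.40 (edgeR adjusted p = 0.994).

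**Figure D2:**
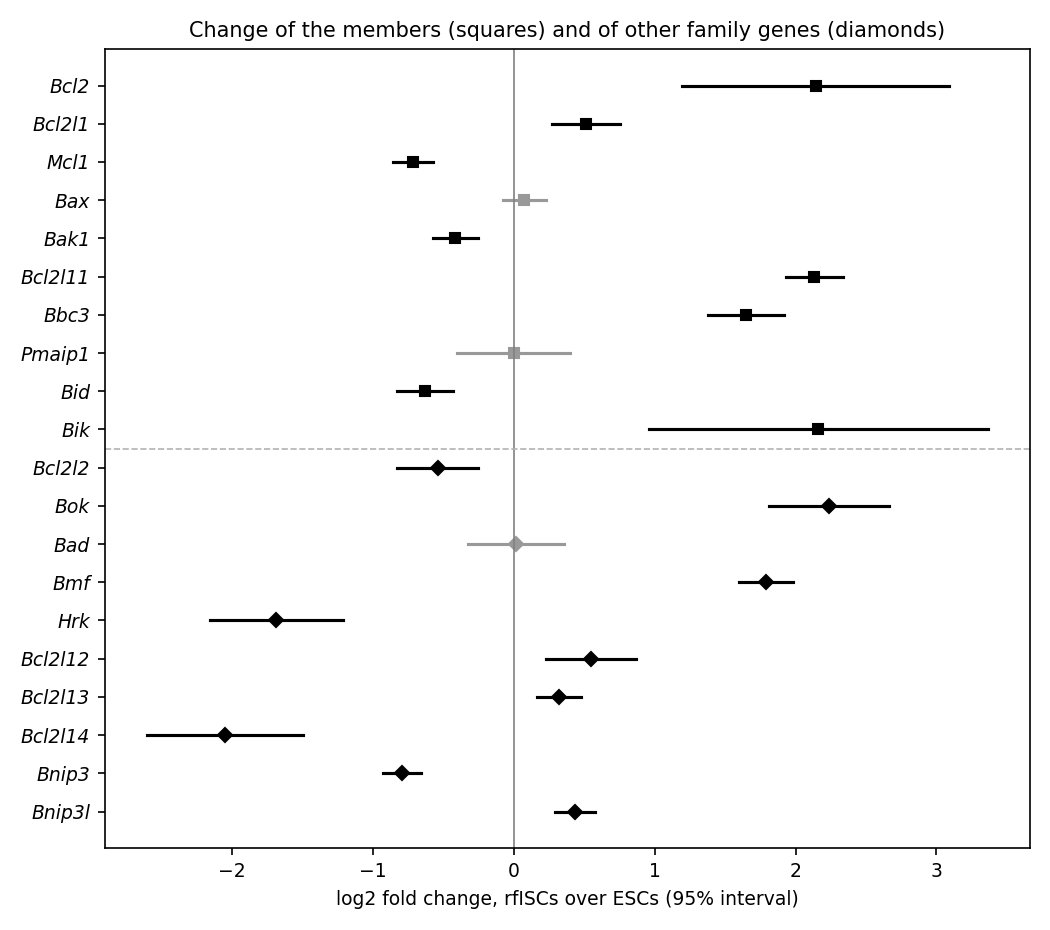
Log2 fold change of rfISCs over ESCs with its 95% interval for the 10 genes (squares) and the tested genes of the wider Bcl2 family (diamonds); black marks genes called at an adjusted p under 0.05 and grey marks genes not called. Bcl2l11 lies at 2.13 and Bbc3 at 1.65 with narrow intervals, and the intervals of Bcl2 and Bik are the widest of the 10.

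On the scale of TPM, which corrects for transcript length and allows levels of different genes to be compared, Bax was the most abundant of the 10 genes in both groups, with 329 and 362 TPM in rfISCs and 310 and 289 TPM in ESCs. Mcl1 followed with 96.9 and 93.8 TPM in rfISCs and 131 and 146 TPM in ESCs, and Bak1 was next with 59.2 and 62.3 TPM in rfISCs and 68.5 and 65.9 TPM in ESCs. Below these the order differed between the groups.

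In rfISCs Bcl2l1 (36.6 and 35.9 TPM) came next and was followed by Bbc3 (34.6 and 32.1 TPM). Bcl2l11 (21.6 and 23.5 TPM) and Bid (21.8 and 20.6 TPM) overlapped in rfISCs. Pmaip1, Bik and Bcl2 closed the order. In ESCs Bid (29.0 and 30.8 TPM) followed Bak1, above Bcl2l1 (23.8 and 19.8 TPM) and Bbc3 (10.4 and 8.65 TPM), and Bcl2l11 (4.76 and 4.70 TPM) overlapped with Pmaip1 (4.64 and 5.84 TPM).

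Summed by role, the 3 pro-survival genes held 134 and 130 TPM in rfISCs and 155 and 166 TPM in ESCs, a ratio of means of 0.821. The 5 BH3-only genes held 88.8 and 83.8 TPM in rfISCs and 49.4 and 50.5 TPM in ESCs, a ratio of 1.73. The 2 effector genes held 388 and 424 TPM in rfISCs and 378 and 355 TPM in ESCs, a ratio of 1.11. On TMM-scaled CPM the effector ratio was 0.940, in the other direction. These sums and the ratios that follow are descriptions without a test, since the genes and their roles were chosen with results of these data known.

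The BH3-only level per pro-survival level was 0.663 and 0.644 in the rfISCs libraries and 0.318 and 0.304 in the ESCs libraries, 2.10 times as high in rfISCs. The level of all 7 pro-death genes per pro-survival level was 3.56 and 3.90 in rfISCs and 2.75 and 2.44 in ESCs, 1.44 times as high. Neither ratio overlapped between the groups. These are ratios of RNA levels, and protein was not measured.

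The makeup within each role also differed. Mcl1 made up 72.3% and 72.1% of the pro-survival TPM in rfISCs and 84.6% and 88.0% in ESCs. The level of Mcl1 per Bcl2l1 was 2.65 and 2.62 in rfISCs and 5.52 and 7.40 in ESCs. Bcl2l11 and Bbc3 together made up 63.3% and 66.3% of the BH3-only TPM in rfISCs and 30.6% and 26.4% in ESCs, where Bid was the largest part. The groups did not overlap in any of these measures.

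**Figure D3:**
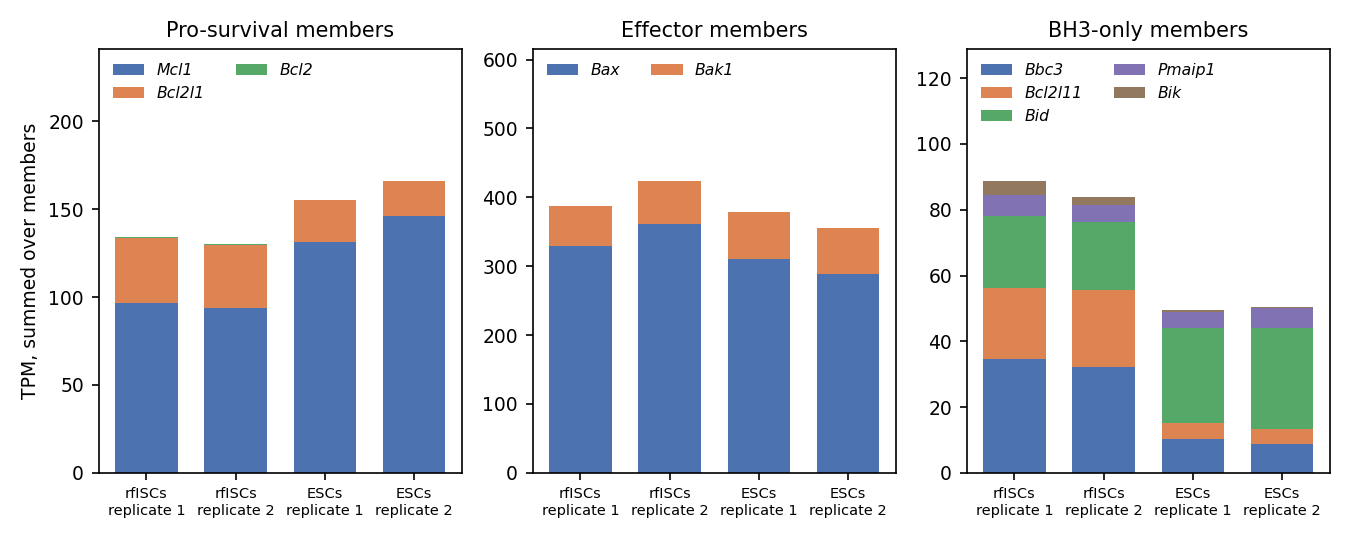
Summed TPM of the pro-survival, effector and BH3-only genes by library, stacked by gene, with rfISCs left of ESCs and an axis for each role that starts at 0. The BH3-only stacks reach 88.8 and 83.8 TPM in rfISCs and 49.4 and 50.5 TPM in ESCs, and the Bcl2l11 and Bbc3 parts are the thicker ones in rfISCs.

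Of the 61 transcripts of the 10 genes, 47 had Ensembl identifiers and 14 were assembled by the authors' pipeline, and 48 had a count in at least 1 library. The other 13 were at 0 in every library. Of 35 transcripts tested, 2 were called higher and 1 lower, and 15 had an unadjusted p under 0.05. Across all 50163 transcripts tested, 3.68% were called, 1.74% higher and 1.94% lower, and 11426 had an unadjusted p under 0.05. In the authors' deposited table, 10 of the 61 transcripts were higher and 4 lower with an adjusted p under 0.05. Of all 160308 transcripts there, 6.81% were under 0.05 in either direction. Counts sufficed for a test here in 35 of the 61 but only 50163 of the 160308, so these sets are not alike in expression.

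The called transcripts were the main coding transcripts of their genes. Bcl2l11-205, which has 196 codons and encodes the longest form, BimEL, had 8.85 and 9.01 TPM in rfISCs and 2.42 and 1.96 TPM in ESCs (log2 fold change 1.89, SE 0.168, edgeR adjusted p = 0.0306). Bbc3-201, with 193 codons, had 24.2 and 23.8 TPM in rfISCs and 6.75 and 5.84 TPM in ESCs (log2 fold change 1.79, SE 0.157, edgeR adjusted p = 0.0301). Mcl1-201, with 331 codons, had 95.8 and 90.7 TPM in rfISCs and 131 and 144 TPM in ESCs (log2 fold change -0.70, SE 0.0779, edgeR adjusted p = 0.0399). None of the groups overlapped for these 3 transcripts. Their calls ended when any 1 library was left out, as did all calls across transcripts.

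For the transcripts of Mcl1 and Bax the division of reads was simple. Mcl1-201 held 97.8% ± 1.48 of the Mcl1 level in rfISCs and 99.1% ± 0.828 in ESCs (share of TPM, mean ± SD, n = 2 libraries). Bax-201, with 192 codons, held 70.6% ± 2.45 of the Bax level in rfISCs and 74.9% ± 1.25 in ESCs, and Bax-203 held 22.8% ± 2.60 in rfISCs and 18.2% ± 0.704 in ESCs. The 2 transcripts that encode full-length Bcl-xL with 233 codons were Bcl2l1-201 and Bcl2l1-202. Bcl2l1-201 held 64.3% ± 1.80 of the Bcl2l1 level in rfISCs and 70.7% ± 4.76 in ESCs, and Bcl2l1-202 held 17.2% ± 6.11 in rfISCs and 17.7% ± 5.56 in ESCs. An assembled Bcl2l1 transcript of 2395 bases had 70.1 and 37.9 estimated counts in rfISCs and none in ESCs. With 3 counts taken as the floor of the whole ESCs group, the lower bound on its rise was 32.3-fold, for counting error alone. This transcript was not called by edgeR (adjusted p = 0.0747), while the authors' own comparison marked it as significant (adjusted p = 7.12e-05). It was chosen after its values were seen.

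Bcl2l11-205 held 41.0% and 38.3% of the Bcl2l11 level in the rfISCs libraries and 50.8% and 41.7% in the ESCs libraries. An assembled transcript of 4885 bases held 34.2% and 30.3% in rfISCs and 14.9% and 29.4% in ESCs. The groups were apart for both, but by less than 1 percentage point at the nearest libraries.

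Bcl2l11-203, with 140 codons, the length of the shorter form BimL, had 53.2 and 51.7 counts in rfISCs and none in either ESCs library. With the same floor the lower bound on its rise was 31.4-fold, for counting error alone. Bcl2l11-203 was not called by edgeR (adjusted p = 0.0612), while the authors' own comparison marked it as significant (adjusted p = 3.58e-05). This transcript was chosen after its values were seen. edgeR's test of unequal change among the transcripts of Bcl2l11 gave an unadjusted p of 0.00629 and an adjusted p of 0.112 over 10263 genes.

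**Figure D4:**
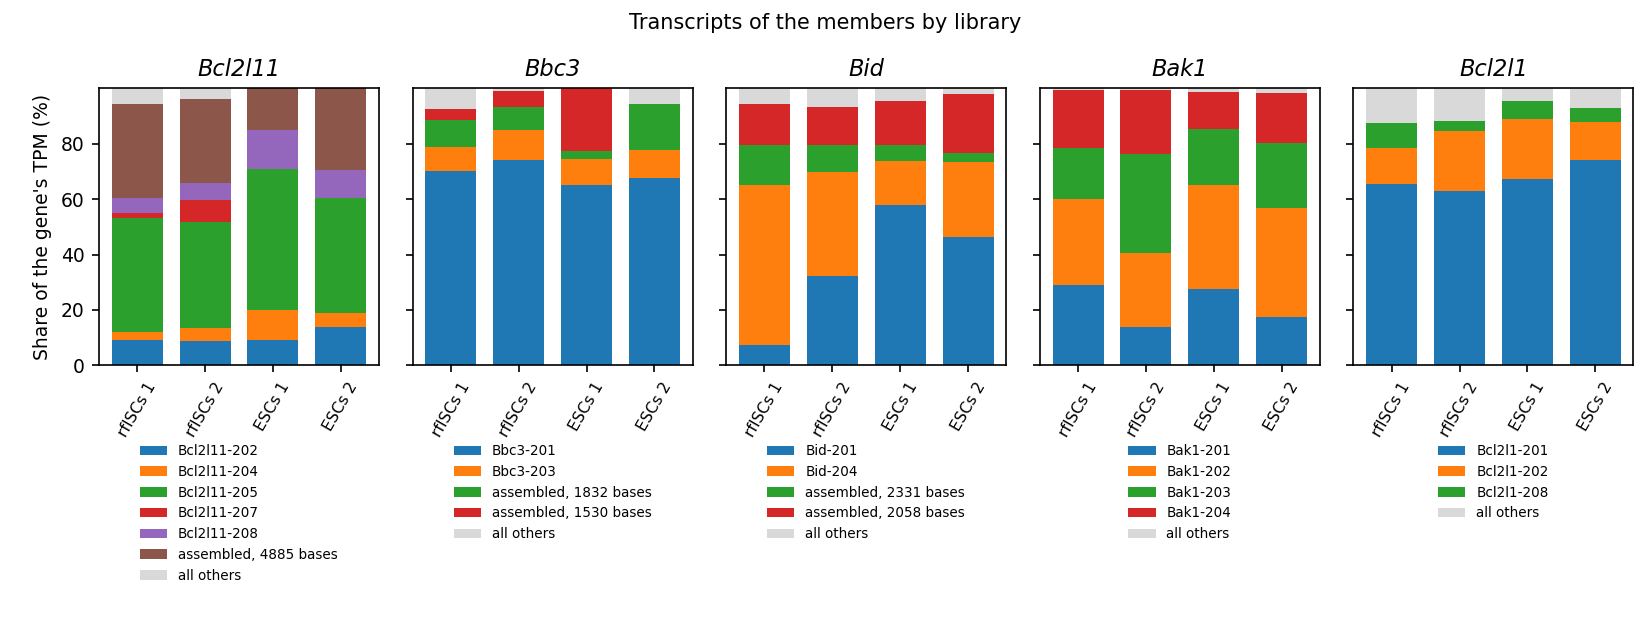
Share of each gene's TPM held by its transcripts, in percent, for 5 genes, by library with rfISCs left of ESCs; all others are the transcripts under 5% in both groups. Bid-201 holds 7.49% and 32.3% of the Bid level in rfISCs and 58.0% and 46.5% in ESCs, and Bid-204 holds 57.5% and 37.7% in rfISCs and 15.6% and 26.8% in ESCs.

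The 2 Bid transcripts with 195 codons divided the Bid level differently among the libraries. The coding transcript Bid-201 had 1.63 and 6.65 TPM in rfISCs and 16.8 and 14.3 TPM in ESCs, and Bid-204, which is annotated for nonsense-mediated decay, had 12.5 and 7.77 TPM in rfISCs and 4.53 and 8.25 TPM in ESCs. The Bid-201 levels did not overlap between the groups, though the rfISCs libraries differed widely from each other, and the Bid-204 levels did overlap. Neither transcript was called by edgeR, and the test of unequal change within Bid gave an adjusted p of 0.742. The authors' deposited table gave Bid-201 a log2 fold change of -2.02 with an adjusted p of 0.0124, and did not mark it as significant.

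For Bcl2, Bik, Pmaip1 and Bbc3, 1 transcript had the largest mean share in both groups. Bcl2-201, with 236 codons, held 92.6% ± 1.60 of the Bcl2 level in rfISCs and 77.3% ± 32.1 in ESCs, and Bik-201, with 150 codons, held 92.1% ± 11.2 of the Bik level in rfISCs and 77.5% ± 31.8 in ESCs. The SD in ESCs was large for both, where few counts were divided between transcripts. In ESCs replicate 1, Bcl2-202 held 45.5% of the Bcl2 level and Bik-204 held 44.9% of the Bik level. Pmaip1-201 held 100% of the Pmaip1 level in both rfISCs libraries and 98.5% ± 2.18 in ESCs, and Bbc3-201 held 72.1% ± 3.01 of the Bbc3 level in rfISCs and 66.4% ± 1.62 in ESCs.

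Transcripts of Bak1 were spread over coding and decay forms. Those annotated for nonsense-mediated decay held 50.1% and 36.9% of the Bak1 level in rfISCs and 40.9% and 35.2% in ESCs, which overlapped. Bak1-202, the transcript with the full 209 codons, had 18.4 and 16.7 TPM in rfISCs and 25.7 and 26.0 TPM in ESCs, and it was not called (edgeR adjusted p = 0.0577). The test of unequal change was run on the 7 members with at least 2 tested transcripts and called none by edgeR, with 1 at an unadjusted p under 0.05, while it called 3.73% of all genes.

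The wider family showed changes in both directions. The counts of calls in this and the further lists stand beside 53.7% called over all genes tested, 27.3% higher and 26.4% lower. Of 5 further pro-survival genes, Bcl2l2 alone passed the filter. It encodes Bcl-w and had 19.2 ± 2.90 CPM in rfISCs and 27.9 ± 2.43 CPM in ESCs (mean ± SD, n = 2), a 1.46-fold fall (edgeR adjusted p = 0.00608) that was lost on the TPM scale (limma adjusted p = 0.645 on log2(TPM + 1)). Bcl2a1a and Bcl2a1d had no counts.

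Of 9 tested further genes that promote death or have an unsettled role, 5 were higher, 3 lower and 1 not called, with a median log2 fold change of 0.32. Bmf, a BH3-only gene, had 61.9 and 62.4 CPM in rfISCs and 17.5 and 18.4 CPM in ESCs, a 3.46-fold rise (edgeR adjusted p = 3.36e-07). Bok, an effector-like gene, had 11.5 and 12.5 CPM in rfISCs and 2.56 and 2.52 CPM in ESCs, a 4.71-fold rise (edgeR adjusted p = 1.12e-05). The values of both genes lay far apart between the groups.

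Hrk, a BH3-only gene known from neurons, had 3.61 and 2.69 CPM in rfISCs and 10.4 and 9.85 CPM in ESCs, a 3.22-fold fall (edgeR adjusted p = 0.000132). Bcl2l14 fell 4.15-fold, to 2.51 and 4.55 CPM in rfISCs against 14.9 and 14.7 CPM in ESCs (edgeR adjusted p = 0.000106). The mitophagy gene Bnip3 fell 1.74-fold, to 120 ± 5.40 CPM in rfISCs against 209 ± 5.22 CPM in ESCs (edgeR adjusted p = 5.67e-06), while its relative Bnip3l rose 1.35-fold (edgeR adjusted p = 0.000319). Bcl2l12 rose 1.46-fold (edgeR adjusted p = 0.00963) and Bcl2l13 rose 1.25-fold (edgeR adjusted p = 0.00378). Both calls ended on the TPM scale, with limma adjusted p-values of 0.0561 for Bcl2l12 and 0.564 for Bcl2l13 on log2(TPM + 1), and that of Bcl2l12 also without assembled transcripts (edgeR adjusted p = 0.666). Bad, a BH3-only gene controlled by phosphorylation, had 11.9 ± 1.38 CPM in rfISCs and 11.8 ± 0.557 CPM in ESCs and was not called (edgeR adjusted p = 0.956).

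Downstream of the mitochondria, 5 of 13 genes of the apoptosome, the released factors and the caspases were higher, 1 was lower and 7 were not called, with a median log2 fold change of 0.29. Casp6, an executioner caspase, had 15.6 and 17.3 CPM in rfISCs and 8.12 and 10.4 CPM in ESCs, a 1.77-fold rise (edgeR adjusted p = 0.00211). Aifm1, a flavoprotein released from mitochondria, was 1.33-fold lower in rfISCs (edgeR adjusted p = 0.000882), which no longer held on the TPM scale (limma adjusted p = 0.0634 on log2(TPM + 1)). Apaf1, the scaffold of the apoptosome, named after its values were seen, had 76.7 and 78.4 CPM in rfISCs and 58.1 and 53.1 CPM in ESCs (edgeR adjusted p = 0.000565). Cycs and Casp9 of the same list, also named after their values were seen, were not called. Their log2 fold changes were -0.05 (edgeR adjusted p = 0.541) and -0.17 (edgeR adjusted p = 0.148).

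Of 6 inhibitor of apoptosis genes, 1 was higher, 4 were lower and 1 was not called, with a median log2 fold change of -0.26. Birc7 had few counts, 5 and 8 in the rfISCs libraries and 45 and 37 in the ESCs libraries, a 7.40-fold fall (edgeR adjusted p = 0.00111). Birc3 fell 1.62-fold (edgeR adjusted p = 0.00812), a call that ended when assembled transcripts were left out, with a log2 fold change of -0.76 (edgeR adjusted p = 0.246) in place of -0.69. Birc5, which encodes the mitotic protein survivin, rose 1.17-fold (edgeR adjusted p = 0.0131), a call that was lost without rfISCs replicate 1 (edgeR adjusted p = 0.0585) and without rfISCs replicate 2 (edgeR adjusted p = 0.146).

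Of 8 tested death receptor and adaptor genes, 4 were higher and 4 were not called, with a median log2 fold change of 0.49. Over all genes tested, 27.3% were called higher and 26.4% lower. Tnfrsf10b, the mouse TRAIL receptor, had 54.3 and 47.5 CPM in rfISCs and 34.5 and 31.9 CPM in ESCs, a 1.53-fold rise (edgeR adjusted p = 0.000552). Tnfrsf1a, the TNF receptor, rose 1.54-fold (edgeR adjusted p = 0.0308), a call that was lost without ESCs replicate 2 (edgeR adjusted p = 0.0956), without rfISCs replicate 1 (edgeR adjusted p = 0.181) and in DESeq2 (adjusted p = 0.0895). Tnfsf10, the gene of the TRAIL ligand, had no counts.

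Of 17 tested regulators of the family, 4 were higher, 8 were lower and 5 were not called, with a median log2 fold change of 0.11. Foxo1, of the FOXO factors whose activation is known to raise Bim, had 37.2 and 37.6 CPM in rfISCs and 24.6 and 23.3 CPM in ESCs, a 1.56-fold rise (edgeR adjusted p = 0.000285). Foxo3, a FOXO gene of the same list that was named after its values were seen, had 125 and 116 CPM in rfISCs and 115 and 101 CPM in ESCs and was not called (log2 fold change 0.16, edgeR adjusted p = 0.116). Trp73, a p53 relative, rose 1.97-fold (edgeR adjusted p = 0.000279). Ddit3, which encodes the stress factor CHOP that is known to raise Bim, had 5.48 and 3.27 CPM in rfISCs and 13.9 and 18.0 CPM in ESCs, a 3.67-fold fall (edgeR adjusted p = 0.000180). Trib3, a CHOP target, fell 4.43-fold (edgeR adjusted p = 2.84e-07).

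A pair of enzymes that act on Mcl-1 protein, both named after their values were seen, moved apart. Huwe1, a ubiquitin ligase for Mcl-1, had 796 and 844 CPM in rfISCs and 702 and 641 CPM in ESCs, a 1.22-fold rise (edgeR adjusted p = 0.00190). Usp9x, which removes ubiquitin from Mcl-1, had 516 and 533 CPM in rfISCs and 736 and 739 CPM in ESCs, with a log2 fold change of -0.49 (edgeR adjusted p = 1.75e-05). The groups did not overlap for either gene. Over all 54 tested genes of these further lists, 19 were higher, 17 lower and 18 not called, with a median log2 fold change of 0.15. The shares over all genes tested were 27.3% higher and 26.4% lower.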

How the data were processed

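Expression was measured by RNA sequencing in 2 rfISCs and 2 ESCs libraries. The authors deposited 1 table of transcripts. It gives each library's estimated counts, with decimals and no scaling, and its TPM, per the file headers. The deposited table also holds the authors' own comparison, with the fold change (rfISCs over ESCs, a ratio), the log2 of it, and a p-value before and after adjustment. A mark of significance is given as well, without its rule in the sources used here. Bowtie 0.12.2 and the build mm9 are named without a role in the submitters' processing notes. The tools for quantification, assembly and testing, and the annotation, are not given in the sources used here. The table holds no coordinates.

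Counts were summed over all transcripts of a gene name and rounded. The 3382 transcripts without a gene name, which held 1.27% and 1.22% of the counts in rfISCs and 1.58% and 1.62% in ESCs, were left out. filterByExpr (minimum count 10) kept 16355 genes. edgeR 4.0.16 (R 4.3.3), the quasi-likelihood test with TMM scaling and the group as model term, was fitted on the whole table, called at a Benjamini-Hochberg adjusted p under 0.05. The SE is the log2 fold change divided by the square root of F. Rounded transcript counts were tested likewise, and diffSpliceDGE with Simes p-values tested unequal change within a gene. CPM are TMM-scaled counts. TPM was summed per gene. Limma 3.58.1 on log2(TPM + 1) or log2(TPM + 0.1), in genes with a mean of at least 1 TPM in a group, DESeq2 1.42.0, its size factors or library totals in edgeR, no filter, Ensembl transcripts alone, the replicate number as a block and each library left out were alternatives. Folds on log2(TPM + 1) are understated for low genes. The tests were checked on simulated counts. There edgeR recovered 46.5% of 71 genes changed 1.5-fold, 85.3% of 68 changed 2-fold and 86.9% of 61 changed 4-fold, with 14 false calls. The rest of the 16355 genes were left unchanged, and a single dispersion was set for all. The data differ in both, so these rates may not carry over. The test of unequal change recovered 62.5% of 200 genes in which a transcript changed 4-fold, with 15 false calls, so a missing call can be a missed change.

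Transcript names, biotypes and codon numbers came from GENCODE M21, which held 97.1% of the Ensembl identifiers. Promoters of 8 members came from the RefSeq table. Motif letters were searched on both strands in the 250 bases before the start.

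A permutation test of 2 libraries against 2 cannot go below an exact two-sided p of 0.333, so single genes rest on the fit across genes. Chi-square per degree of freedom between replicates was 4.55 in rfISCs and 6.71 in ESCs over genes with at least 20 counts, above sampling noise. Floors of 3 counts cover counting error only, and not error in the division of counts among transcripts. The 95% intervals come from the edgeR fit and include the spread between libraries. Named were all members, every tested gene of the wider family, and the 2 largest called rises and falls of each other list with a mean of at least 1 CPM, and member transcripts with at least 5% of their gene's TPM in a group. The members and lists were chosen with earlier results of these data known. A gene that the naming rule picks is not reported here.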

Additional observations from a re-analysis of the deposited data

How the results depend on the processing

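Bcl2l11, Bbc3, Bcl2l1, Bid and Mcl1 kept their direction and call in 13 of 13 alternatives, Bcl2 in 11 of 11 (it fell under the TPM filter in the other two), Bik in 11 of 13 and Bak1 in 10 of 13. With limma on log2(TPM + 1) the median of all genes shifted by 0.15, 66.4% of calls were higher against 50.9% in edgeR, 2169 genes were called lower in place of 4311, 1 pro-survival member was called higher and 1 pro-death member lower, and Bak1 had a log2 fold change of -0.14. With log2(TPM + 0.1) these were 2176 genes, 1 and 1 members, and -0.15 for Bak1 (adjusted p = 0.147). Without the TPM filter limma called 5219 genes, 1734 of them lower, and 1 pro-death member lower, with -0.14 for Bak1 (adjusted p = 0.168) and 1.41 for Bik (adjusted p = 0.0502). The cause was not tested.

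Leaving out 1 library gave log2 fold changes of Bik between 1.76 and 2.56, and gene calls between 6808 and 9284. For transcripts, 873 were called higher and 971 lower. Without a filter 1343 were called higher. Each of the 4 fits with a library left out called 0 higher and 0 lower, with between 8924 and 10501 at an unadjusted p under 0.05. The test of unequal change within a gene called 383 genes with all libraries and between 115 and 138 with a library left out. These fits hold fewer samples, and where a group has 1 library it is assumed to vary like the other group.

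The replicate numbers share only a number (correlation of same-numbered deviations 0.00103). The replicate block changed 0 of 32 calls of members and named genes and called 8822 genes in place of 8783. For transcripts the replicate block called 0 higher and 0 lower, with 8611 at an unadjusted p under 0.05, and 69 genes for unequal change.

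On TMM-scaled CPM in place of TPM, the rfISCs over ESCs ratio of the BH3-only per pro-survival level was 2.41 in place of 2.10. That of the pro-death per pro-survival level was 1.62 in place of 1.44. The ratio of the effector level changed direction, with 0.940 in place of 1.11. With counts in place of TPM, 34 of 60 transcript shares moved by more than the replicate SD. Of 22 further named genes, 9 changed call under at least 1 alternative (Bcl2l2, Bcl2l12, Bcl2l13, Hrk, Aifm1, Birc3, Birc5, Tnfrsf1a and Foxo1), of which Hrk and Foxo1 did so in unfiltered limma alone (adjusted p = 0.0504 and 0.0528). Depth limits Bcl2 and Bik, with at most 12 counts in an ESCs library.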
